A study of Mus musculus with 21 samples.

Results

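Cytosolic ribosomal protein genes are described here in mouse embryonic stem cells (ESCs). They were taken as every row of the count tables whose symbol is Rpl or Rps followed by a number (with an optional letter, digit or l), or is Rplp0, Rplp1, Rplp2 or Rpsa. The rule found 87 genes of 40838 rows, 54 of the large and 33 of the small subunit. It takes in paralogs such as Rpl10l, and it leaves out genes such as Fau and Rack1, which carry ribosomal proteins under other names. Beside them stood 23 rows of the same name ending in -ps and a number, the mark of a pseudogene, which belong to 12 of the genes and include 9 copies of Rps12.

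A ribosome is built from ribosomal RNA and a set of proteins, most of them present once in each particle, and the genes for these proteins are usually expressed in step. Their messages are short, abundant and often begin with a pyrimidine tract through which growth signals set translation. Because the messages are so abundant in the germ line, they have been copied back into the mouse genome many times as processed pseudogenes, and a read from a coding stretch can match several places.

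Poly(A) RNA was sequenced from 21 libraries in 8 groups, all from ESCs kept for 48 h with 0.2 mM pyruvate in medium with 10% dialyzed serum. SL is read here as serum with leukemia inhibitory factor, and SL2i as the same with inhibitors of GSK3B and MEK, in which ESCs stay in a more uniform naive state. One table holds SL cells with a vector and SL cells with LbNOX (a bacterial NADH oxidase), 3 libraries each. The other holds the line chr8A, read here as the control, and 2 clones labelled SLC16A1 (the lactate and pyruvate carrier MCT1), each with 3 libraries in SL and 2 in SL2i. The labels do not say how the clones were altered. Each clone is 1 line, so a clone's difference from chr8A belongs to that line. Where nothing says that replicates were separate cultures, a p-value speaks only of how far these libraries scatter, and that scatter may be technical.

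The shared coding sequence shows how far a read can tell a gene from its copy. The pairs below are Rps6, the gene with the largest share of reads at its pseudogene, and Rpl14 with its pseudogene, then Rpl6l and Rpl32l, which fell in SL2i while Rpl6 and Rpl32 rose, and last the paralog Rpl10l, which differed most in the clones in SL2i. All are GENCODE M21 transcripts on build GRCm38, written 5′ to 3′. Each is the 90-base ungapped stretch of the coding sequence with the most differing letters, and capitals in the copy mark a letter that differs from the gene.
Rps6, coding bases 1 to 90: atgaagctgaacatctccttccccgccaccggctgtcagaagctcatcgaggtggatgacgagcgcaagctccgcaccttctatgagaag
Rps6-ps4: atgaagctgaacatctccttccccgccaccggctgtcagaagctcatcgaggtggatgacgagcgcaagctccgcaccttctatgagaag
Rpl14, coding bases 334 to 423: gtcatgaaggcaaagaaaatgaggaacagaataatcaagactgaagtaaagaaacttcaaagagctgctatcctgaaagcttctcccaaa
Rpl14-ps1: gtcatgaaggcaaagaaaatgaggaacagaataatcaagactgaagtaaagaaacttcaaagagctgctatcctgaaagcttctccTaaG
Rpl6, coding bases 400 to 489: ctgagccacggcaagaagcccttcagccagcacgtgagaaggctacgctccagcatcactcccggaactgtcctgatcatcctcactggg
Rpl6l: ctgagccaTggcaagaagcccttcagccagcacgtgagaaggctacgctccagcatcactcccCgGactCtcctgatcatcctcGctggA
Rpl32, coding bases 166 to 255: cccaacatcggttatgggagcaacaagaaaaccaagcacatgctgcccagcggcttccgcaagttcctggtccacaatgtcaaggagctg
Rpl32l: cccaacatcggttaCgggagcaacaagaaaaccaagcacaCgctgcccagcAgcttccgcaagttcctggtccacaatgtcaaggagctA
Rpl10, coding bases 304 to 393: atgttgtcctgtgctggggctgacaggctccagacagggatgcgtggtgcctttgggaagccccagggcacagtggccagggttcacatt
Rpl10l: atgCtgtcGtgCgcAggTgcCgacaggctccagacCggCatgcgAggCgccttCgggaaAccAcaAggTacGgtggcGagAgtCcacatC

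Over the whole alignment, Rps6-ps4 (chromosome 2) carried the 747 coding bases of Rps6 (chromosome 4) with 0 differences. Rpl14-ps1 (chromosome 7) differed from Rpl14 (chromosome 9) at 4 of 648 aligned bases, with 3 gapped bases beside these. Rpl6l (chromosome 10) differed from Rpl6 (chromosome 5) at 11 of 871, with 0 gapped. Rpl32l (chromosome 10) differed from Rpl32 (chromosome 6) at 10 of 398, with 6 gapped. Rpl10l (chromosome 12), a coding paralog without introns that is known from the testis, differed from Rpl10 (chromosome X) at 98 of 642. Rpl34-ps1 differed from Rpl34 at 2 of 353 aligned bases, and Rps27rt, a row outside the rule, had the 252 coding bases of Rps27 with 0 differences. Such a read can fall to the gene, to the copy or to neither, depending on how multiple matches were counted, a setting not given in the sources used here.

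Copies were counted for every member by cutting its longest coding sequence into overlapping words of 75 bases and asking which occur at another locus of the reference. Of the 84 members with an annotated coding sequence, 23 shared 100% of their words. A member had a median of 6 other reference genes that drew at least 20% of their 30-base words from it, and 66 at most. Copies were sought among the 75.7% of count table rows that could be matched to the reference. There, 70 rows beyond the members and -ps rows drew at least 20% of their own 30-base words from a member. Of these, 12 had a mean of at least 10 CPM (counts scaled to a common library size). The muscle paralog Rpl3l and the testis paralog Rpl39l shared 0% of their 75-base coding words, as did Rps3.

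Slc16a1, the gene the clones are named for, held 195 to 201 CPM in the SL libraries of chr8A, 162 to 182 in clone 1 and 91.4 to 96.5 in clone 2. In SL2i the ranges were 157 to 167, 122 to 123 and 78.5 to 78.7 CPM, so its reads were fewer in both clones but present. Depth ran from 15802072 to 30145771 counts in the SL libraries and from 9784408 to 10908368 in the SL2i libraries. Summed over 8 pluripotency markers, the SL libraries of the chr8A and SLC16A1 lines held 4139 to 4393 CPM and their SL2i libraries 6912 to 7476. Summed fibroblast markers (10 genes) held 43.98 to 54.61 CPM in SL and 10.73 to 13.16 in SL2i, and 4 neural markers held 324.7 to 395.4 and 56.24 to 66.03. In each SL2i group, 6 of the fibroblast markers stayed under 1 CPM in every library. Trophoblast markers (5 genes) held 72.6 to 95.91 CPM in SL and 44.56 to 51.54 in SL2i. Primitive endoderm markers (6 genes) held 5.675 to 8.462 and 3.061 to 4.74. The part of these markers and of the depth in the differences between the media was not tested, and medium and library set cannot be told apart. In such bulk RNA, fewer cells of a type and less RNA per cell cannot be told apart either.

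The 87 genes took a larger share of each library in SL2i than in SL. In chr8A cells they held 2.76, 2.78 and 2.74% of all counts in SL and 5.50 and 5.24% in SL2i. Clone 1 held 2.59, 2.60 and 2.63% in SL and 4.66 and 4.49% in SL2i. Clone 2 held 2.69, 2.63 and 2.67%, then 4.89 and 4.59%. No SL library reached any SL2i library, and within SL2i both chr8A libraries lay above all 4 of the clones. In the separate table, the vector cells held 2.55 to 2.65% and the LbNOX cells 2.54 to 2.72%, which overlap. Counts at the copies went the other way: the 23 -ps rows held 0.208 to 0.229% of counts in the SL libraries of the chr8A and clone lines against 0.0313 to 0.0394% in SL2i, and the 70 other copy rows 0.307 to 0.328% against 0.0286 to 0.0342%. These sums are descriptions of chosen rows, with no test.

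**Figure D1:**
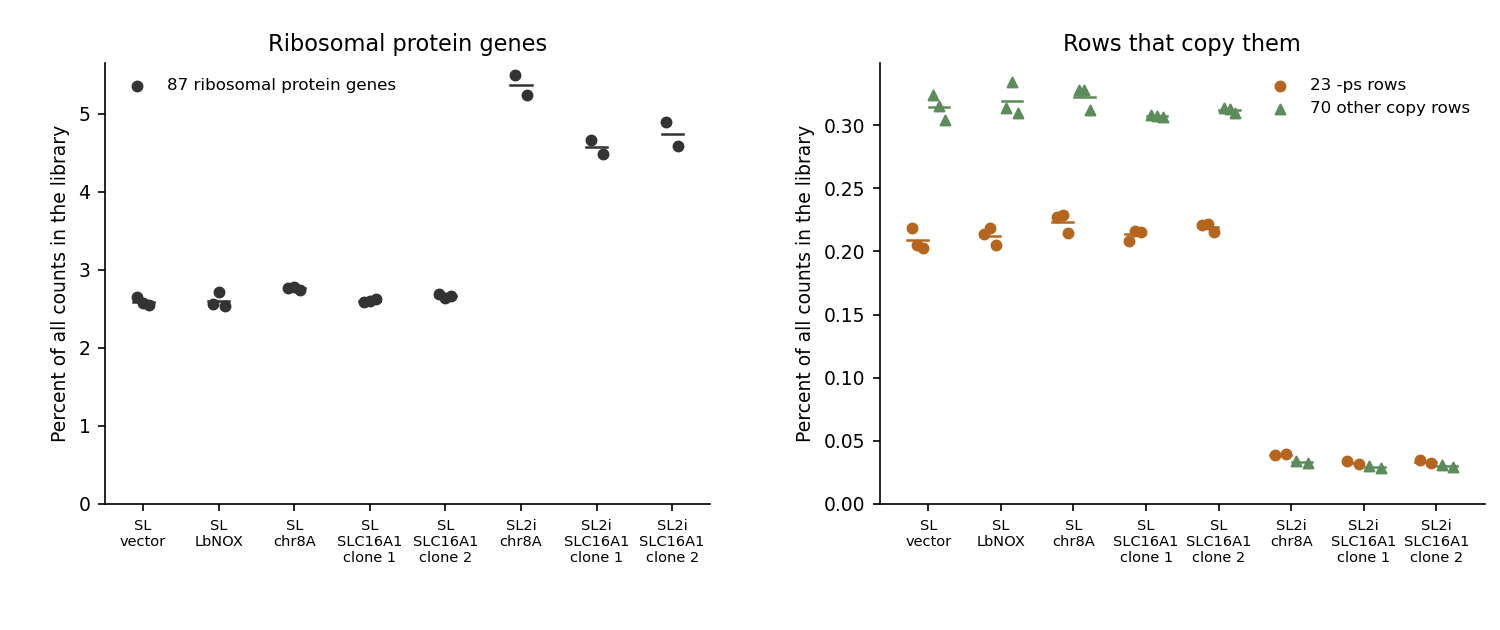
Percent of all counts in each library at the 87 ribosomal protein genes (left) and at the 23 -ps rows and the 70 other copy rows (right), by group. Points are libraries and short lines are group means; the genes hold 2.54 to 2.78% of counts in SL and 4.49 to 5.50% in SL2i, while both kinds of copy hold less in SL2i.

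Levels per gene length spanned a wide range although the ribosome holds 1 copy of most of these proteins. In TPM, which scales reads by gene length and library size, the order in SL chr8A cells began with Rplp1, a protein of the stalk that contacts elongation factors, at 6151 ± 66.4 TPM (SD, n = 3). Rpl8 followed at 5977 ± 211 TPM, with libraries that overlapped those of Rplp1, and Rpl4 at 5470 ± 198. Rpl41 and Rpl32 came next at 4997 ± 167 and 4716 ± 217 TPM, and these 2 overlap in spread. At the foot stood Rpl3l, which replaces Rpl3 in striated muscle, at 0.727 ± 0.139 TPM, Rps27 at 12.3 ± 2.41, Rpl5 at 22.5 ± 0.617, Rpl39l at 24.3 ± 1.47 and Rpl10l at 28.4 ± 0.512. Rps27 and Rpl5 are not paralogs known from other tissues, and 100% of the coding words of each lie at other loci as well. In SL2i chr8A cells Rplp1 led again at 10229 ± 274 TPM (n = 2) and Rpl3l was again last at 4.74 ± 1.43, whereas Rps27 stood at 347 ± 44.5.

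**Figure D2:**
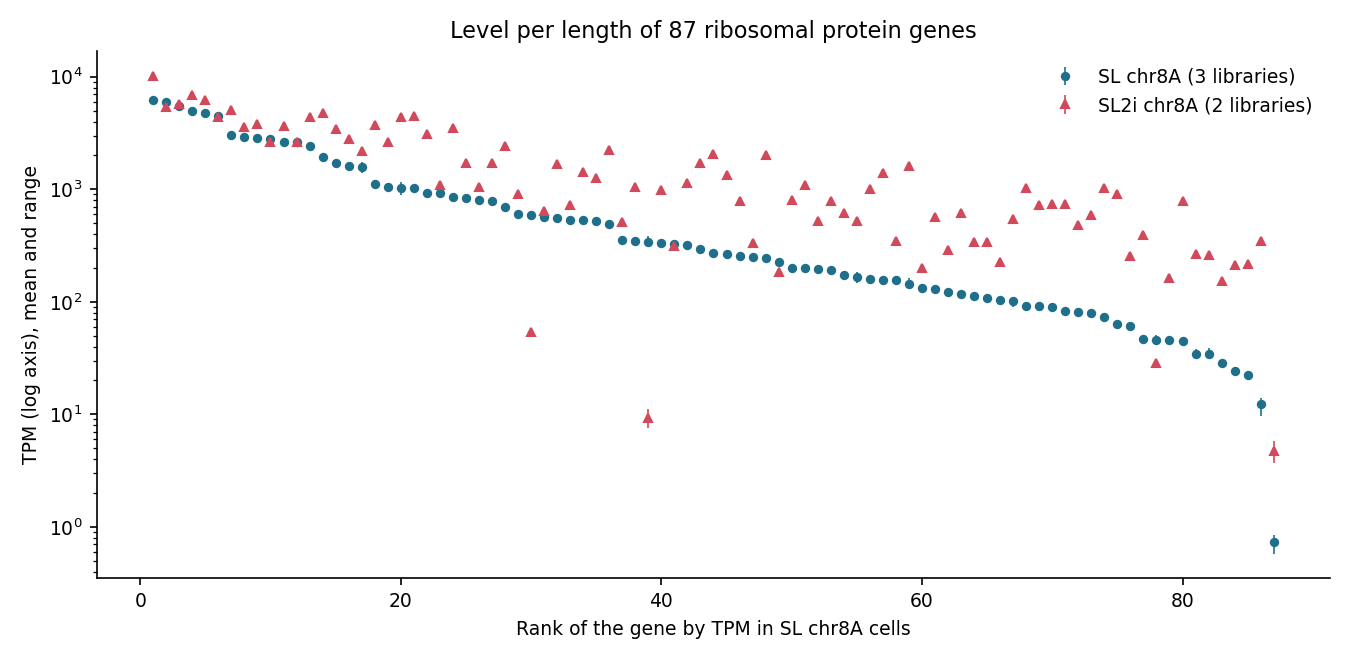
TPM on a log axis of the 87 ribosomal protein genes in chr8A cells, ordered by their SL level, with the mean and range over 3 SL and 2 SL2i libraries. Rplp1 is first in both media, and the 2 triangles far under the SL curve are Rpl6l and Rpl32l. Many genes on the right lie well above their SL level in SL2i, but Rpl28, also low in SL, does not. The order uses the SL values themselves, which favors larger rises on the right.

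SL2i against SL was compared within each line. In chr8A cells, 83 of the 87 genes were higher and 3 lower by the quasi-likelihood test of edgeR, with Benjamini-Hochberg adjusted p over all genes under 0.05 (here a called gene), with a median log2 fold change of 1.86. Over the 17178 genes tested, 36.1% were higher and 36.8% lower (72.8% called in all), with a median of 0.00. In clone 1 the count was 80 higher and 3 lower, with a median of 1.66, against 35.9% and 37.1% of all genes (73.0% in all). In clone 2 it was 79 higher and 3 lower, with a median of 1.70, against 35.8% and 37.2% (73.1% in all). Libraries did not overlap between the media for 83 members that were higher and 4 lower in chr8A cells, where 39.9% and 40.9% of all genes did so. In clone 1 the 2 media stood apart for 81 higher and 4 lower members (40.1% and 41.2% of all genes), and in clone 2 for 79 and 3 (40.1% and 41.4%). The large subunit genes had a median of 2.07 in chr8A cells and the small subunit genes 1.57.

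The size of the rise differed widely between genes. Rps27, a zinc finger protein of the small subunit, read 1.92, 2.91 and 2.84 CPM in the 3 SL libraries of chr8A and 95.3 and 76.4 CPM in the 2 SL2i libraries. Its log2 fold change was 5.06 ± 0.11 (SE), with an adjusted p of 9.8e-46 by edgeR's quasi-likelihood test. Every SL2i library lay far above every SL library. Rpl24, which sits at the interface of the subunits, went from 10.7, 11.9 and 10.3 to 232 and 229 CPM (log2 fold change 4.39 ± 0.06). Rpl9 went from 19.0, 20.1 and 17.9 to 334.6 and 305.7 CPM (4.07 ± 0.05), and Rps16 from 20.9, 21.4 and 19.0 to 279.5 and 262.4 (3.73 ± 0.05). The groups did not overlap for any of these genes. Rps29 rose by 4.10 ± 0.19 and Rpl37a by 3.73 ± 0.06 on the log2 scale. These are changes of the rows as deposited. With the rows that copy them added (below), Rps27 came to -1.60 ± 0.05 and Rpl37a to 0.28 ± 0.05, while Rpl9 still rose by 3.745.

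Several of the most highly expressed members differed little between the media. Rpl8 read 1854, 1875 and 1828 CPM in SL and 2020 and 1956 in SL2i, a log2 fold change of 0.10 ± 0.03 in chr8A cells. In clone 1 it read 0.04 ± 0.03 and in clone 2 0.00 ± 0.03, with adjusted p of 0.31 and 0.99 in edgeR's fit. Rps3, which lines the entry of the message channel, rose by 0.26 ± 0.03 in chr8A cells and gave -0.05 ± 0.03 and 0.01 ± 0.03 in the clones. Rpl4, which lines the exit tunnel, rose by 0.32 ± 0.03 in chr8A cells, and Rps9 by 0.18 ± 0.03. Rps27l, a paralog of Rps27 and a p53 target, read 226.8, 224.0 and 223.8 CPM in SL and 223.2 and 206.8 in SL2i. Its change was -0.06 ± 0.04 (adjusted p = 0.11, edgeR), and it was the single member not called in chr8A cells. It fell by 0.17 ± 0.04 in each clone.

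The 3 members called lower in chr8A cells were Rpl32l, Rpl6l and Rpl28. Rpl32l read 78.79, 71.75 and 66.49 CPM in SL and 2.899 and 1.876 in SL2i, and it fell by 4.91 ± 0.13 on the log2 scale. Rpl6l read 201.8, 196.7 and 197.2 CPM and then 20.4 and 23.1, and it fell by 3.19 ± 0.06. Both are copies of a member, as shown by their sequences above, while their parents Rpl32 and Rpl6 rose by 0.67 ± 0.03 and 1.53 ± 0.03. Rpl28 was low throughout, at 7.725, 7.454 and 9.303 CPM in SL and 6.668 and 5.529 in SL2i. It fell by 0.42 ± 0.16, but with libraries thinned to equal depth, in a single random draw of reads, its change of -0.26 had an adjusted p of 0.30 in the same test. Its call was also lost without the third SL library or the second SL2i library of chr8A.

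The change in SL2i moved with how much of a gene's coding sequence is found elsewhere. For this description, which was laid out after the values had been seen, the 84 members with a coding sequence were put in 4 classes. The 15 members with under 20% of their 75-base words shared had a median log2 fold change of 0.66 in chr8A cells. The 10 members from 20% to under 60% had 1.05, the 36 members from 60% to under 100% had 2.05, and the 23 members at 100% had 2.29. In clone 1 the 4 medians were 0.39, 0.78, 1.92 and 2.20, and in clone 2 they were 0.41, 0.79, 1.97 and 2.33. The order of the classes was thus the same in each line. Across genes, Spearman's rho between the change and the shared percent was 0.49 in chr8A cells, 0.52 in clone 1 and 0.53 in clone 2 (n = 84 genes, which are not independent and share the same libraries). With gene length it was -0.16, -0.16 and -0.18 (n = 87). The part of shared sequence in the difference between the media was not tested.

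Some members stood apart from that order. Rpl39l and Rpl10l, with 0% and 0.53% of words shared, rose in chr8A cells by 3.37 ± 0.08 and 2.69 ± 0.08, and Rpl3l by 2.94 ± 0.35. All 3 are paralogs known from other tissues and were low in SL. Rpl39l read 7.60, 7.73 and 7.16 CPM in SL chr8A cells against 81.3 and 74.1 in SL2i, and Rpl3l read 0.543, 0.505 and 0.389 against 2.996 and 4.443. Rpl28, with 100% shared, was the lowest of the 84.

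**Figure D3:**
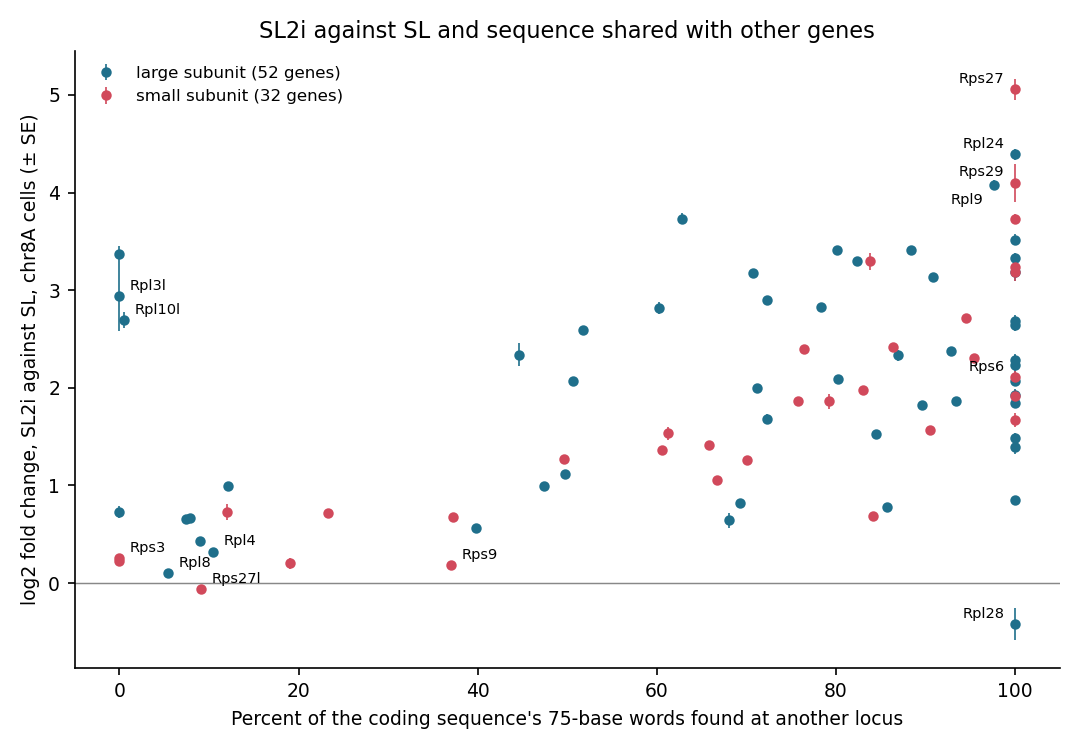
The log2 fold change of SL2i against SL in chr8A cells (± SE) plotted against the percent of a gene's 75-base coding words found at another locus, for the 84 members with an annotated coding sequence. Most genes under 20% lie near 0 to 1, Rpl3l, Rpl10l and Rpl39l lie near 3 at 0 to 0.53%, and the genes at 100% span -0.42 to 5.06.

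Members with special places on the ribosome were taken by themselves. Of the stalk, Rplp0 rose by 0.56 ± 0.03, Rplp1 by 0.99 ± 0.03 and Rplp2 by 2.34 ± 0.12 in chr8A cells. Rplp2 read 183.9, 174.2 and 150.3 CPM in SL and 791.9 and 919.9 in SL2i, while Rplp0 read 1407, 1412 and 1450 and then 2139 and 2061. Rpsa, a surface protein of the small subunit also known as the laminin receptor, rose by 1.57 ± 0.03. Among duplicate pairs, Rpl36a rose by 2.68 ± 0.06 and its retrocopy Rpl36al by 0.82 ± 0.04. Rpl22l1 rose by 1.68 ± 0.05 and Rpl22, which it can stand in for, by 0.43 ± 0.03. Rps4x, on the X chromosome, rose by 1.06 ± 0.03 and Rps4l by 0.47 ± 0.04. For Rpl36a with Rpl36al and Rpl22l1 with Rpl22, the member with the larger share of coding words elsewhere rose more as deposited. With its copy row added, however, Rpl22l1 rose by 0.30 ± 0.05, less than the 0.43 of Rpl22. Rps4l had no annotated coding sequence. Other paralog pairs were mixed. Rps27 and Rpl7, with the larger shares, rose more than Rps27l and Rpl7l1 as deposited, but with its copy row added Rps27 changed by -1.60 ± 0.05. Rpl39l, Rpl10l and Rpl3l, with the smaller shares, rose more than Rpl39, Rpl10 and Rpl3.

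Some -ps rows fell while the genes they are named for rose. Of the 14 of 23 rows that passed the filter on low counts, 8 fell and 1 rose in chr8A cells, where 36.8% of all genes tested were lower and 36.1% higher. Clone 1 had the same counts (37.1% and 35.9% of all genes). In clone 2 none of the 14 rose, also by DESeq2, and 8 fell, against 35.8% of all genes higher and 37.2% lower. At an unadjusted p under 0.05 the count in clone 2 was also 8, with no share of all genes given for that threshold. The single call of a rise in chr8A cells became 2 without the third SL library and 0 without the second SL2i library, and that in clone 1 became 2 without its second SL2i library. In clone 2 there was 1 without its SL library 2 or 3. Their median log2 fold changes were -1.41, -1.68 and -1.72. Rps6-ps4 read 848.0, 877.4 and 832.7 CPM in the SL chr8A libraries and 50.7 and 49.3 in SL2i. It fell by 4.09 ± 0.04 on the log2 scale, with an adjusted p of 1.5e-94 (edgeR), while Rps6 read 23.05, 22.25 and 22.73 CPM in SL and 102.0 and 93.7 in SL2i. In SL the copy was therefore far above the gene, and in SL2i the order was the opposite. Rpl14-ps1 fell by 2.03 ± 0.04, Rpl17-ps10 by 3.62 ± 0.07 and Rpl34-ps1 by 0.97 ± 0.04. Rpl27a-ps4 was the row that rose in chr8A cells, by 1.72 ± 0.52. It read 0.752, 1.05 and 2.02 CPM in SL and 3.87 and 4.64 in SL2i, so its level was low in both, and its parent Rpl27a rose as well, by 1.84 ± 0.05. Rpl13-ps6 read 0.08 ± 0.14 and was not called, while Rpl13 rose by 2.07 ± 0.04.

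Expressed as a share, 59.5 to 61.3% of the reads of the 12 genes with -ps rows were counted at the -ps rows in the SL libraries of the chr8A and clone lines, against 7.26 to 7.62% in SL2i. Most of these -ps reads lay at Rps6-ps4 and Rpl14-ps1. In SL chr8A cells they had means of 852.7 and 841.3 CPM, against 179.9 for Rpl34-ps1, the next -ps row. The share of Rps6 was 96.97 to 97.53% in SL and 31.49 to 36.03% in SL2i. Rpl17 went from 87.34 to 90.34% in SL to 6.61 to 8.44% in SL2i, Rpl34 from 81.94 to 85.14% to 26.11 to 27.63%, and Rpl14 from 74.51 to 79.03% to 31.45 to 35.85%. Rps15a held 27.84 to 30.12% and then 2.68 to 3.76%, Rps18 9.49 to 12.5% and 0.142 to 0.274%, and Rpl13 14.4 to 17.6% and 3.69 to 5.22%. None of these ranges overlapped between the media, and within a medium the 3 lines lay together. The 9 copies of Rps12 held 9.03 to 17.4% and 1.45 to 1.76%. Among genes with reads at a -ps row, only Rpl27a overlapped, with 0.659 to 4.43% in SL and 1.497 to 4.032% in SL2i. The -ps rows of Rplp2 and Rps19 held 0 reads in all 21 libraries, where 3 counts over all of them would be 0.00725 CPM.

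**Figure D4:**
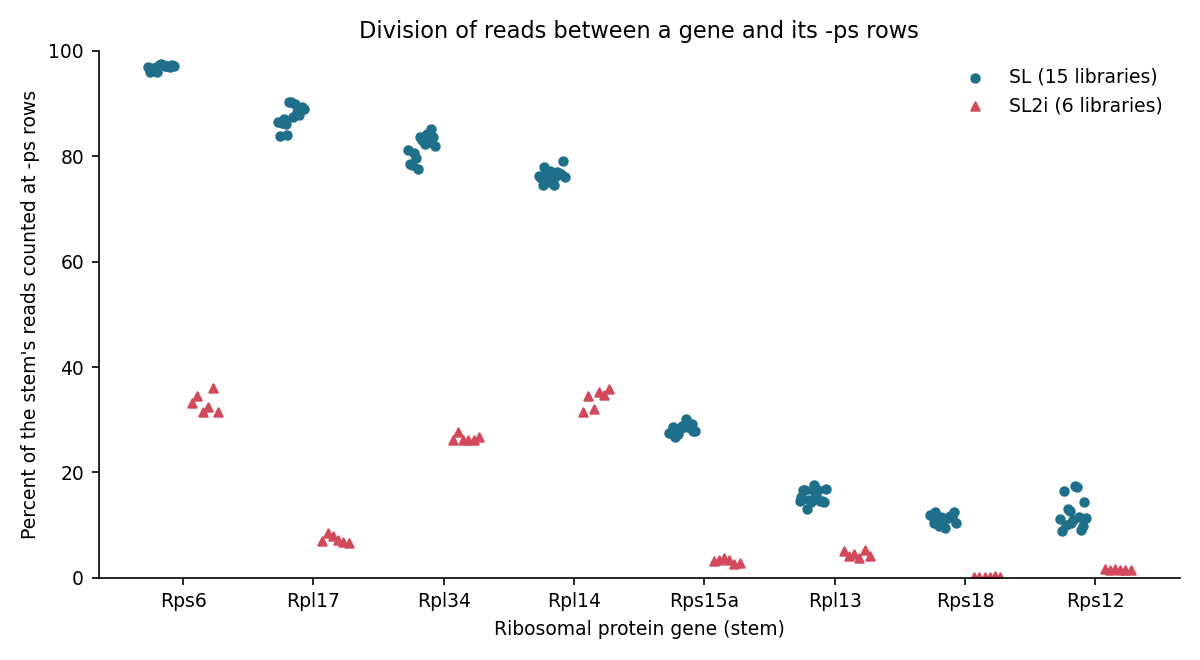
Percent of the reads of a gene and its -ps rows that were counted at the -ps rows, for 8 genes, each point a library (15 SL libraries of both tables and 6 SL2i libraries). For each gene drawn the SL points lie above the SL2i points, from 97.53% for Rps6 in SL down to 0.142% for Rps18 in SL2i.

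Some copies that do not carry the -ps name fell too. Of the 38 copy rows tested, 14 were lower and 3 higher in chr8A cells, so the share called lower was the 36.8% of all genes, and that called higher lay under the 36.1% of all genes. Rps27rt read 321.7, 323.2 and 301.8 CPM in SL and 19.9 and 20.1 in SL2i, and it fell by 3.98 ± 0.06 while Rps27 rose. Rpl37rt, a copy of Rpl37, read 518.6, 539.9 and 515.4 CPM and then 86.5 and 86.3. Copies of Rpl13a (Gm11478) and Rpl26 (Gm15772) fell by 4.59 ± 0.05 and 4.95 ± 0.07. All copy rows together took 16.1 to 16.9% of the reads of members and copies in SL and 1.30 to 1.36% in SL2i.

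Adding the copies to the gene changed the picture for individual genes, and the median stayed above 0. That median had limited room to move. Members with no matched row, among them Rpl24, Rps16, Rps29 and Rpl5, kept their own counts. Rpl6l and Rpl32l, as members, were not added to Rpl6 and Rpl32. The reference held 817 genes that drew at least 20% of their 30-base words from a member, and most were matched to no row here. Only 75.7% of all rows were matched to the reference, so some copies may have a row that was not added. Reads left out for matching several places could not be restored by a sum. With the -ps rows added, 80 members were higher and 6 lower in chr8A cells, with a median log2 fold change of 1.83. When every matched copy row was added, a setting chosen after seeing the data, 77 were higher and 8 lower, with a median of 1.45. The medians were then 1.11 in clone 1 and 1.18 in clone 2. Summed with their copies, Rps6 went from a rise of 2.11 to a change of -2.58 ± 0.04, Rps27 from 5.06 to -1.60 ± 0.05, Rpl14 from 0.64 to -0.84 ± 0.04 and Rpl37 from 3.41 to -0.62 ± 0.03. Rpl17 and Rpl30 came to 0.06 ± 0.05 and 0.05 ± 0.04, from 3.19 and 2.90 as deposited. Rpl37a came to 0.28 ± 0.05 and Rpl22l1 to 0.30 ± 0.05, from 3.73 and 1.68. In clones 1 and 2, Rpl37a came to 0.18 ± 0.05 and 0.04 ± 0.05. Rpl34 came to 0.66 ± 0.04. For Rpl9 and Rps12 the sums still rose, by 3.745 and 3.102, and for Rpl10 by 1.91. In the clones, Rpl22l1 went from rises of 1.10 and 1.29 to changes of -0.27 ± 0.05 and -0.07 ± 0.05, and Rpl30 to -0.27 ± 0.04 and -0.24 ± 0.04. The direction for Rps6, Rps27, Rpl14 and Rpl37 thus rested on which rows were counted. That for Rpl30 did so in both clones and that for Rpl22l1 in clone 1, while Rpl22l1 in clone 2 came near 0. Rpl17 came to -0.10 ± 0.05 in clone 1 and -0.01 ± 0.05 in clone 2. Rpl34, Rpl9, Rps12 and Rpl10 kept their direction.

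The SLC16A1 clones were compared with chr8A in SL2i. Both clones were set against the same chr8A libraries, so their values stand side by side and are not independent. In clone 1, 67 of 87 ribosomal protein genes were lower and 0 higher, with a median log2 fold change of -0.25, against 12.1% of all genes lower and 10.4% higher (22.4% in all). In clone 2, 60 were lower and 0 higher, with a median of -0.19, against 10.8% and 9.74% of all genes (20.6% in all). Libraries stood apart from chr8A for 70 lower and 2 higher members in clone 1, where 29.3% and 27.5% of all genes did, and for 74 and 1 in clone 2, where 28.0% and 27.2% did. DESeq2 also gave 0 higher in both clones, with 62 and 60 lower. At an unadjusted p under 0.05, 72 members differed in clone 1 and 68 in clone 2, in either direction. The shares of all genes above are by adjusted p. No share is given for the unadjusted threshold, so these 2 counts have no background. Without the first chr8A library in SL2i, which had the highest share of counts at these genes, the count in clone 2 was 36 and that in clone 1 was 49.

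Most of these differences were small and alike in size. The quartiles of the 87 changes were -0.30 and -0.18 in clone 1 and -0.22 and -0.14 in clone 2. Rpl4 read 3969 and 3880 CPM in the chr8A libraries, 3215 and 3156 in clone 1, and 3380 and 3430 in clone 2. It fell by 0.30 ± 0.03 and 0.20 ± 0.03, and neither clone overlapped chr8A. Rps3 read 2225 and 2028 CPM, then 1631 and 1596, then 1766 and 1722 (-0.40 ± 0.03 and -0.29 ± 0.03). Rpl13a, known also as a silencer of inflammatory messages once released from the ribosome, read 2315 and 2118 CPM against 1668 and 1678, and 1864 and 1708 (-0.41 ± 0.04 and -0.31 ± 0.04). Rps12 fell by 0.46 ± 0.08 in clone 1 and by 0.42 ± 0.08 in clone 2. In clone 2, Rpl23a and Rps10 fell by 0.34 ± 0.10 and 0.33 ± 0.08. With only the groups compared in the fit, the call of Rps12 in clone 1 had an adjusted p of 0.196 and that of Rps10 in clone 2 an adjusted p of 0.083 (edgeR). That of Rps10 also had 0.14 and 0.066 without either chr8A library.

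The shares of shared sequence did not order these differences as they did those between media. From the class with under 20% of words shared to that with 100%, the medians were -0.26, -0.29, -0.26 and -0.22 in clone 1, and -0.15, -0.23, -0.18 and -0.19 in clone 2. The -ps share was also alike in the 3 lines in SL2i. The stalk genes Rplp0 and Rplp1 fell by 0.24 ± 0.04 and 0.33 ± 0.04 in clone 1 and by 0.22 ± 0.04 and 0.28 ± 0.04 in clone 2. Rplp2 read -0.16 ± 0.13 and -0.25 ± 0.13 and was not called.

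The paralogs spread most widely. Rpl10l had the largest difference, with 67.7 and 67.8 CPM in chr8A, 19.74 and 23.02 in clone 1, and 28.4 and 26.5 in clone 2. It fell by 1.66 ± 0.09 and 1.30 ± 0.09 on the log2 scale, with adjusted p of 1.4e-29 and 5.3e-24 (edgeR). Rpl10 itself read -0.13 ± 0.06 and -0.08 ± 0.06 and was not called. Rpl22l1, which can replace Rpl22, read 131.4 and 120.1 CPM in chr8A, 79.5 and 76.0 in clone 1 and 89.5 and 83.7 in clone 2. It fell by 0.70 ± 0.06 and 0.54 ± 0.06, and Rpl22 by 0.29 ± 0.04 and 0.14 ± 0.04. In contrast, Rpl39l read 81.3 and 74.1 CPM in chr8A against 77.7 and 75.6, and 84.2 and 78.4, which overlap, while Rpl39 fell by 0.35 ± 0.04 and 0.19 ± 0.04. Rpl7l1, Rpl36al, Rps27l, Rps4l and Rpl3l were called in neither clone.

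**Figure D5:**
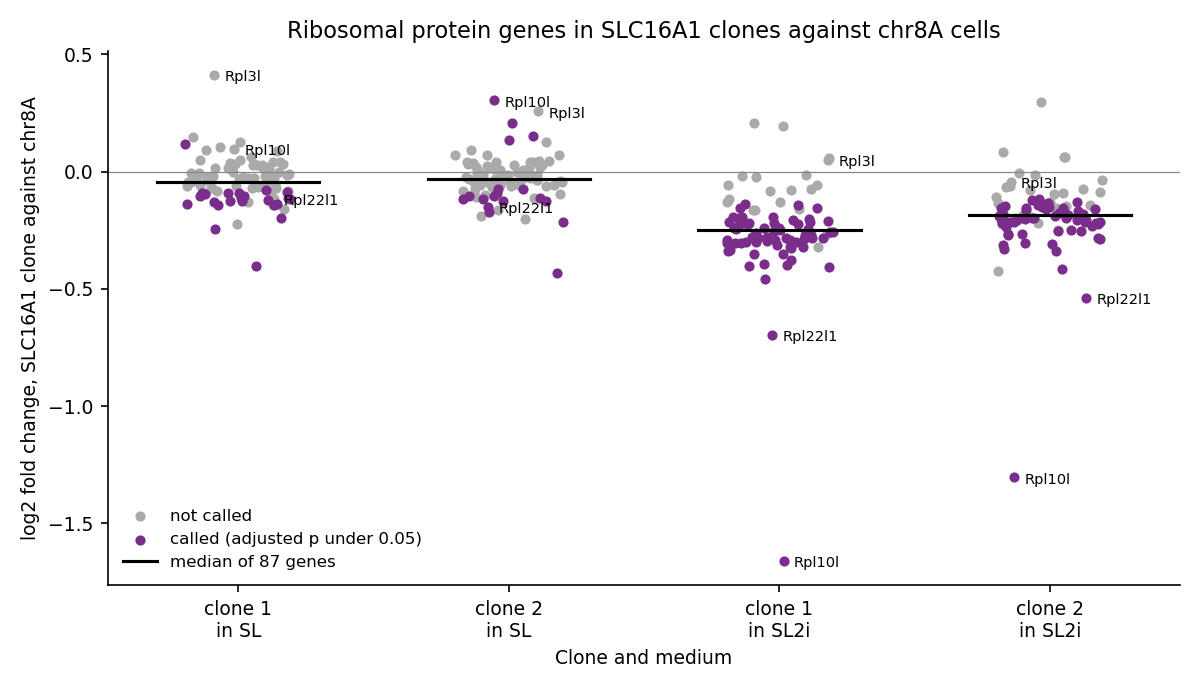
The log2 fold change of each SLC16A1 clone against chr8A in SL and in SL2i for the 87 ribosomal protein genes, with the median as a line and called genes in purple. The medians are -0.04 and -0.03 in SL and -0.25 and -0.19 in SL2i, and Rpl10l is the lowest point in SL2i at -1.66 and -1.30.

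In SL the clones differed less from chr8A. Clone 1 had 22 members lower and 1 higher, with a median log2 fold change of -0.04, against 7.77% of all genes lower and 8.83% higher (16.6% in all). Clone 2 had 14 lower and 4 higher, with a median of -0.03, against 12.6% and 14.3% of all genes (26.9% in all). Libraries stood apart for 30 lower and 2 higher members in clone 1 (15.4% and 16.3% of all genes) and for 14 and 7 in clone 2 (18.5% and 20.2%). The clone 1 count of lower genes was 13 without the second chr8A library or without the first of the clone, and 12 without its second. Its count of higher genes was 2 without the first chr8A library. The count of lower genes in clone 2 was 8 or 7 without the first or the second chr8A library, and its count of higher genes was 2 without the third chr8A library, or without its own first or second.

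Rpl39l had the largest fall in both clones in SL. It read 7.60, 7.73 and 7.16 CPM in chr8A, 5.55, 5.91 and 5.57 in clone 1, and 5.71, 5.84 and 5.16 in clone 2. These groups did not overlap, and it fell by 0.40 ± 0.11 and 0.43 ± 0.10. Rpl7l1, a paralog of Rpl7, was higher in both clones, by 0.12 ± 0.03 and 0.21 ± 0.03. Rpl10l rose by 0.30 ± 0.08 in clone 2 (adjusted p = 0.0025, edgeR) and read 0.10 ± 0.09 in clone 1 (0.52). With libraries thinned to equal depth, in a single random draw of reads, its clone 2 change was 0.00 and was not called. Rpl9 fell by 0.24 ± 0.07 and 0.21 ± 0.07, and with every matched copy row added its clone 1 change was -0.18, with an adjusted p of 0.116 (edgeR). Rpsa fell by 0.14 ± 0.03 in clone 1 and Rpl13a by 0.13 ± 0.03 in clone 2. Rpl27 was higher in clone 2 by 0.15 ± 0.06 (adjusted p = 0.045), a call that was lost under 7 other settings and without any of 5 single libraries.

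Whether a clone's difference depended on the medium was tested as an interaction. For clone 1, 39 members were lower in SL2i relative to SL and 1 higher, with a median of -0.20, against 9.24% of all genes lower and 7.78% higher (17.0% in all). For clone 2, 37 were lower and 1 higher, with a median of -0.16, against 9.18% and 7.69% (16.9% in all). Without the second clone 1 library in SL2i the clone 1 count of lower genes was 23. For clone 2 it was 14 without the first chr8A library in SL2i and 18 without its own second library there. Rpl10l had the largest interaction, -1.76 ± 0.13 and -1.61 ± 0.12. Rpl22l1 read -0.58 ± 0.08 and -0.39 ± 0.08, next in size among called members for clone 1 and after Rpl39l for clone 2. Rpl39l was the higher one in both, by 0.38 ± 0.13 and 0.50 ± 0.12. The clone 1 call of Rpl39l was lost without a filter on low counts, at an adjusted p of 0.051 (edgeR), and when any of 5 single libraries was left out.

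No ribosomal protein gene was called between LbNOX and vector cells. By edgeR's quasi-likelihood test 0 of 87 were called in either direction, as by DESeq2, against 0.0062% of all genes higher and 0.031% lower (0.0372% in all). Libraries did not overlap for 2 members that were higher and 1 lower, where 4.96% and 4.68% of all genes did so. The median log2 fold change was 0.01, from -0.35 to 0.17. At an unadjusted p under 0.05 there were 2 members, Rps29 and Rpl3, against 605 of 16119 genes. Rps29 read 9.70, 14.1 and 11.7 CPM with the vector and 8.03, 8.98 and 10.6 with LbNOX, which overlap. Rpl3 read 138.6, 133.7 and 129.7 CPM against 144.0, 148.4 and 138.9, which do not overlap. Rps3 read 1686, 1651 and 1641 CPM against 1640, 1718 and 1627, and Rplp0 read 1399, 1406 and 1382 against 1349, 1420 and 1389. The -ps rows held 58.2 to 59.7% of their genes' reads with the vector and 58.5 to 60.7% with LbNOX, close to the SL libraries of the other table, which were normalized separately.

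Other genes of the ribosome's making and use were counted from lists of known function. In chr8A cells in SL2i, 13 of 32 ribosome biogenesis genes were higher and 12 lower, with a median log2 fold change of 0.01, near the 36.1% and 36.8% of all genes tested. The counts of the lists that follow stand against the same shares. Npm1, a nucleolar chaperone, rose by 1.00 ± 0.03 and Dkc1, the pseudouridine synthase, by 0.73 ± 0.03. Of 18 RNA polymerase I genes, 12 were higher and 2 lower (median 0.24), and of 78 mitochondrial ribosomal protein genes 51 and 9 (median 0.25). Of 19 elongation and related factors, 16 were higher and 1 lower (median 0.42), led by Naca and Btf3, the subunits of the nascent chain complex, with 2.04 ± 0.03 and 2.09 ± 0.04. Fau, which joins a ubiquitin-like protein to a ribosomal protein, rose by 1.93 ± 0.07. Of 18 regulators, 6 were higher and 10 lower: Myc fell by 2.75 ± 0.09, Mycn by 1.58 ± 0.04 and Larp1, which binds the pyrimidine tract of these messages, by 0.80 ± 0.03.

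The same lists in the clones against chr8A differed by medium. In SL2i, 11 of 19 elongation and related factors were lower in clone 1 and 10 in clone 2, with 0 higher in either, against 12.1% and 10.8% of all genes lower, led by Eef2 with -0.29 ± 0.03 and -0.33 ± 0.03. Of 8 genes listed as snoRNA hosts, 6 and 5 were lower and 0 higher, among them Gas5 with -0.41 ± 0.04 and -0.36 ± 0.04. Of the 32 ribosome biogenesis genes in SL2i, clone 1 had 5 higher and 5 lower, and for clone 2 these counts were 5 and 2, where 10.4% and 9.74% of all genes were higher. Myc rose there by 1.51 ± 0.12 and 1.14 ± 0.13. In SL, 21 of 32 biogenesis genes were higher in clone 1 and 31 in clone 2, with 0 lower, by a median of 0.10 and 0.16, against 8.83% and 14.3% of all genes higher. Mitochondrial ribosomal protein genes in SL were higher for 13 and 28 of 78 and lower for 1 in each clone, where 7.77% and 12.6% of all genes were lower.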

How the data were processed

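Raw counts per gene were deposited by the authors in 2 tables, with reads from a TruSeq stranded poly(A) kit processed with DRAGEN 3.10, featureCounts of Subread and build GRCm39, per the labels and the submitters' processing notes. No source used here gives the annotation or how strand and multiple matches were handled. The counts were tested as deposited with edgeR 4.0.16 in R 4.3.3 (filterByExpr, TMM, robust quasi-likelihood fit, 1 mean per group, Benjamini-Hochberg over all genes in a comparison), 1 fit per table. Levels are TMM-scaled CPM or, per gene length, TPM. DESeq2 1.42.0 was an alternative. Shared words came from GENCODE M21 transcripts on GRCm38, matched by name, so no coordinates are given. Alternatives were other scalings and filters, equal depth (a single random draw of reads), a replicate block, only the groups compared, summed copy rows and single libraries left out. Named members had the largest called changes without overlap, the highest or lowest levels, or little shared sequence, or were set paralogs, stalk and surface proteins; -ps rows were named by level or share, and list genes by smallest adjusted p. The copies without the -ps name and the single summed genes were chosen after their values were seen, and Rpl37rt was then added to the genes outside the rule. The fit was tested on simulated data. The members and the gene lists were chosen with earlier results of these data known. Some members that the rule for naming would give are not reported here.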

Additional observations from a re-analysis of the deposited data

Results flagged for a closer look

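By the interaction test, the clone effect differed between SL2i and SL for 39 members lower and 1 higher in clone 1 and for 37 and 1 in clone 2. Those picked by the rule for naming members in the clone comparisons or the interaction are given here as the log2 difference of the effects (SL2i minus SL), so some members with larger differences than the smallest of these are not listed. For clone 1 those listed were Rpl10l at -1.76, Rpl22l1 at -0.58, Rpl36a at -0.48, Rpl27 at -0.36, Rpl5 at -0.35, Rps27a at -0.33, Rps3 at -0.31, Rpl13a at -0.29, Rpl7l1 at -0.19 and Rpl35a at -0.16, with Rpl39l at 0.38. For clone 2 those listed were Rpl10l at -1.61, Rpl22l1 at -0.39, Rps6 at -0.35, Rpl27 at -0.29, Rpl37a at -0.29, Rplp1 at -0.27, Rpl7l1 at -0.25 and Rpl13a at -0.19, with Rpl39l at 0.50. Rpl7l1 was higher than chr8A in SL in both clones and was called in neither in SL2i, and Rpl10l was far below chr8A in SL2i alone.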

How the results depend on the processing

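With the -ps rows added to their gene, 6, 5 and 5 members were lower in SL2i in chr8A, clone 1 and clone 2, against 3 in each as deposited, and with every matched copy row added, 8, 9 and 8. For clone 2 in SL, DESeq2 gave 2 members higher (against 4), and equal depth 8 lower (against 14). For the interaction, equal depth gave 24 lower in clone 2 (against 37), and no filter gave 0 higher in clone 1 (against 1). The -ps rows called higher in clone 2 were 0, but 1 without a filter, with only the groups compared or at equal depth. Replicate numbers did not pair the libraries: same-numbered correlations of deviations ran from -0.05 to 0.08 in 33 pairs of one table and from -0.29 to 0.21 in 3 of the other. The replicate block moved 1 count, the -ps rows higher in clone 2, to 2. Leaving out 1 library, the ranges were 1 to 2 higher and 12 to 20 lower for clone 1 in SL, 2 to 4 and 7 to 16 for clone 2 in SL, 36 to 57 lower for clone 2 in SL2i, 0 to 1 higher and 23 to 48 lower for the clone 1 interaction, and 14 to 41 lower for the clone 2 interaction. For -ps rows higher they were 0 to 2 in chr8A, 1 to 2 in clone 1 and 0 to 1 in clone 2. With every matched copy row added, Rps27 turned from a rise in SL2i to -1.60, -1.73 and -1.73 in chr8A, clone 1 and clone 2. Rps6, Rpl14 and Rpl37 also turned in all 3 lines, Rpl30 in both clones and Rpl22l1 in clone 1. Rpl17 came near 0 in clones 1 and 2, at -0.10 ± 0.05 and -0.01 ± 0.05, as did Rpl22l1 in clone 2 at -0.07 ± 0.05. With only the -ps rows added, Rps6 and Rpl14 turned in all 3 lines, and Rpl17 came to -0.10 ± 0.05 and -0.01 ± 0.05 in clones 1 and 2. Under the other settings no called change of a member picked by the naming rule turned. Causes were not tested. SL2i libraries were shallower, with 2 per line, which limits low genes such as Rpl3l.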
